A study of Homo sapiens with 12 samples.

Results

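Expression of DNAJC15, LINC01088, TMEM106B and CLGN is described here, the 4 transcripts chosen by their log2 level in EVI1 cells being far below that in vector cells on these same arrays. They were taken by symbol from 19775 genes that have a probe set (a group of short array probes summarised into 1 level) annotated to them alone, and together they are read by 11 of the 54675 probe sets. U937 is an established human leukaemia line of monocytic type, and EVI1, encoded by MECOM, is a zinc finger transcription factor and myeloid oncogene. The 12 arrays form 4 groups of 3: U937_EVI1 cells (EVI1 expression vector) with 1 µM all-trans retinoic acid (ATRA), U937_vec cells (empty vector) with 1 µM ATRA, U937_EVI1 cells with the solvent DMSO, and U937_vec cells with DMSO, each for 24 h. All groups share the parent line, the medium and transduction with a vector. Whether each transduced line was a pool or a single clone is not given in the sources used here, so differences between EVI1 and vector cells are differences between these lines. The promoter that drives EVI1 is not given either.

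The 4 products act in different places. DNAJC15 encodes a J-domain protein of the mitochondrial inner membrane, also called methylation-controlled J protein, which works with the Hsp70 of the TIM23 import motor and is known to restrain respiratory complex I. J-domain proteins stimulate the ATPase of their Hsp70 partner. TMEM106B encodes a transmembrane glycoprotein of late endosomes and lysosomes, linked genetically to frontotemporal dementia together with progranulin. CLGN encodes calmegin, a calcium-binding chaperone of the endoplasmic reticulum and a relative of calnexin, best known in mouse testis, where it is needed for sperm fertility. LINC01088 is a long intergenic non-coding RNA.

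The transcripts lie on 3 chromosomes: DNAJC15 on chromosome 13, TMEM106B on chromosome 7, and LINC01088 and CLGN on chromosome 4. Their promoter windows, 250 bases before to 50 after the annotated start, are shown because the 4 transcripts differ together between the lines, and because promoter CpG content is a feature that was not used to choose them. The sequences are from RefSeq (GRCh38.p14), each written 5′ to 3′ on the strand of the gene, and capitals mark CpG dinucleotides. The windows are chr13:43023336-43023635 (plus strand) for DNAJC15, chr4:78971498-78971797 (plus strand) for LINC01088, chr7:12211044-12211343 (plus strand) for TMEM106B and chr4:140427599-140427898 (minus strand) for CLGN.
DNAJC15: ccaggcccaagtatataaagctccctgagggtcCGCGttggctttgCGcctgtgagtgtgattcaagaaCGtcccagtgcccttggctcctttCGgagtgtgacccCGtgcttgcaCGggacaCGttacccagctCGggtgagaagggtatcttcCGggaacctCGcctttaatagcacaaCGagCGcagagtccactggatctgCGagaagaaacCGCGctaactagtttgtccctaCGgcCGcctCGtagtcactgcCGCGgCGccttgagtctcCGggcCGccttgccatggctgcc
LINC01088: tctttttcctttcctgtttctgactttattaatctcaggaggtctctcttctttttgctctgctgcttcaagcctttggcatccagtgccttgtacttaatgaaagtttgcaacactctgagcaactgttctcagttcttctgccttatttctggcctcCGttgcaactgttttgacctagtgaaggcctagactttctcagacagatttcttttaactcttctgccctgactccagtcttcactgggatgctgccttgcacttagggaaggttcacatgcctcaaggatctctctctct
TMEM106B: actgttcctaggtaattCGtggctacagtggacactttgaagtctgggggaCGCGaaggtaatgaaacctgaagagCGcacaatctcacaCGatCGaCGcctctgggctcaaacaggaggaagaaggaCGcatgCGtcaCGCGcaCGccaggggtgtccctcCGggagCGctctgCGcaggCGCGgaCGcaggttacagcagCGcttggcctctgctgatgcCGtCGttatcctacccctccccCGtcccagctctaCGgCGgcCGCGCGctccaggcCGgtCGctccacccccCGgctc
CLGN: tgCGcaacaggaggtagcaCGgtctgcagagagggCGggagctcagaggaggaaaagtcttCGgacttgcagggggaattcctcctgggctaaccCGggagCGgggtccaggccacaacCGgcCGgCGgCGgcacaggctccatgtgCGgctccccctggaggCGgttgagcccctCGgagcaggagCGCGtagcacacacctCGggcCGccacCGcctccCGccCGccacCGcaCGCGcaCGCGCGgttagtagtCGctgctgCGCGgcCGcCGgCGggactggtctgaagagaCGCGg

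The DNAJC15, TMEM106B and CLGN windows held more CpG than the median window, and that of LINC01088 held fewer. The upper quartile over all windows was 28 CpG, and DNAJC15 lay below it. The window of DNAJC15 held 24 CpG in 300 bases (60% G and C), that of TMEM106B 30 (64%) and that of CLGN 34 (71%), against a median of 14 over all 35116 RefSeq promoter windows of this length. The window of LINC01088 held 1 CpG (44.7% G and C), and 3.96% of all windows held fewer. For DNAJC15, TMEM106B and CLGN the share of windows with fewer CpG was 66.1%, 77.6% and 84.4%. Starts with more and with fewer CpG than the median were thus both present among the 4 transcripts.

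Short motifs were searched on both strands of these windows. AGATAA, the core of the sequence bound by the first zinc finger domain of EVI1 and also by GATA factors, was in 0 of the 4 windows (10.3% of all windows). GAAGATGAG, bound by the second zinc finger domain, was in 0 of 4 (0.347% of all). AGGTCA, the core of retinoic acid receptor sites, occurred once, in the LINC01088 window (13.8% of all), and CCGGAAG, an ETS-type motif, once, in the DNAJC15 window (10.3% of all). A match is a run of letters and not a site, and its absence says only that these letters are not in this window.

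Levels are given as log2 RMA values (robust multi-array average), the deposited unit, in which 1 unit is a 2-fold difference in signal. On these arrays the lower quartile of all probe sets lay between 3.83 and 3.91 and the median between 5.29 and 5.35. Signals near the lower quartile are usually mostly background, so fold differences that reach down to it are compressed, and a transcript that is absent cannot be told apart from one that is rare. These are bulk samples, so fewer cells with a transcript and less RNA per cell cannot be told apart either.

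DNAJC15 had the most negative difference between the lines, averaged over both agents, among the 14080 genes with enough signal to be tested (log2 of at least 5 on at least 3 arrays). Under ATRA, probe set 218435_at read 4.04, 4.34 and 4.37 in EVI1 cells, against 8.79, 9.41 and 9.24 in vector cells (replicates 1 to 3). Under DMSO it read 4.42, 3.93 and 4.55 in EVI1 cells, against 9.30, 9.34 and 9.40 in vector cells. Every EVI1 array was thus at least 4.24 units below every vector array. The group means were 4.25 ± 0.18 in EVI1 cells and 9.15 ± 0.32 in vector cells under ATRA, and 4.30 ± 0.33 in EVI1 cells and 9.35 ± 0.05 in vector cells under DMSO (SD, n = 3). The difference, EVI1 minus vector, was -4.90 ± 0.18 under ATRA and -5.05 ± 0.18 under DMSO (SE of the limma fit), which is 29.8-fold and 33.1-fold lower in EVI1 cells. The EVI1 level lay between the percentiles 25.9 and 37.2 of the array, just above the lower quartile, and the vector level between 85.7 and 90.3.

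The 4 transcripts were chosen for this contrast, so no test of it is given for any of them and the values are a description. All 4 passed the filter on low signal, each through the 6 vector arrays alone. For scale, the adjusted p of the fit passed 0.05 in 5.61% of all genes between EVI1 and vector cells under ATRA and in 1.21% under DMSO, and in 1.7% of all genes every EVI1 array was below every vector array, as it was for all 4 transcripts. Ranked by the mean difference over both agents, DNAJC15 (-4.97), LINC01088 (-4.83) and TMEM106B (-4.525) were the 3 most negative of all genes tested. CLGN (-2.80) was the fifth, after THBD (-4.15), which encodes thrombomodulin and is not among the 4, and before LTBP1 (-2.39). A gap of at least 2 units between the lowest vector and the highest EVI1 array was found in 3 genes (DNAJC15, LINC01088 and TMEM106B) and in 0 genes in the opposite direction, where every EVI1 array is above every vector array.

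LINC01088 was as sharply split, but varied more in vector cells. Under ATRA, probe set 230781_at read 3.54, 3.40 and 3.04 in EVI1 cells, against 7.67, 8.22 and 8.86 in vector cells. Under DMSO it read 3.92, 3.04 and 3.71 in EVI1 cells, against 7.95, 8.06 and 8.88 in vector cells. The vector array of replicate 3 was the highest under both agents and that of replicate 1 the lowest, while 5 of the 6 EVI1 arrays were below the lower quartile range of the arrays and the remaining one, 3.92, was just above it. The means were 3.33 ± 0.26 in EVI1 cells and 8.25 ± 0.60 in vector cells under ATRA, and 3.56 ± 0.46 in EVI1 cells and 8.30 ± 0.51 in vector cells under DMSO (SD, n = 3). The difference was -4.92 ± 0.33 under ATRA and -4.74 ± 0.33 under DMSO (SE).

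TMEM106B, which encodes the lysosomal membrane protein, was likewise near background in EVI1 cells. Under ATRA, probe set 226529_at read 3.43, 4.15 and 3.21 in EVI1 cells, against 7.71, 8.62 and 8.67 in vector cells. Under DMSO it read 4.50, 3.37 and 3.70 in EVI1 cells, against 7.80, 8.21 and 8.50 in vector cells. The highest EVI1 array, replicate 1 under DMSO, was still 3.21 units below the lowest vector array. The means were 3.60 ± 0.49 in EVI1 cells and 8.33 ± 0.54 in vector cells under ATRA, and 3.86 ± 0.58 in EVI1 cells and 8.17 ± 0.35 in vector cells under DMSO (SD, n = 3). The difference was -4.74 ± 0.34 under ATRA and -4.31 ± 0.34 under DMSO (SE).

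CLGN, the calmegin transcript, stood between the percentiles 15.3 and 30.1 of the array in EVI1 cells and between 59.0 and 69.5 in vector cells. Its single probe set, 205830_at, read 4.13, 3.98 and 3.30 in EVI1 cells under ATRA, against 5.89, 6.69 and 6.47 in vector cells. Under DMSO it read 3.38, 3.61 and 3.35 in EVI1 cells, against 6.13, 6.58 and 6.78 in vector cells. The groups did not overlap, with a gap of 1.76 units over all 12 arrays. The means were 3.80 ± 0.44 in EVI1 cells and 6.35 ± 0.41 in vector cells under ATRA, and 3.45 ± 0.14 in EVI1 cells and 6.50 ± 0.33 in vector cells under DMSO (SD, n = 3), and the difference was -2.55 ± 0.25 under ATRA and -3.05 ± 0.25 under DMSO (SE). That is 5.84-fold and 8.28-fold lower in EVI1 cells.

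The size of the difference varied with the replicate number. For DNAJC15 the difference between the arrays of one number lay between -5.41 and -4.75 over both agents, the narrowest range of the 4. For LINC01088 it lay between -5.82 and -4.03, for TMEM106B between -5.46 and -3.30, and for CLGN between -3.43 and -1.76. In LINC01088, TMEM106B and CLGN the smallest difference was on the arrays of number 1 under both agents. Replicate 1 also had the lowest vector level under both agents for all 4 transcripts, DNAJC15 included.

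**Figure D1:**
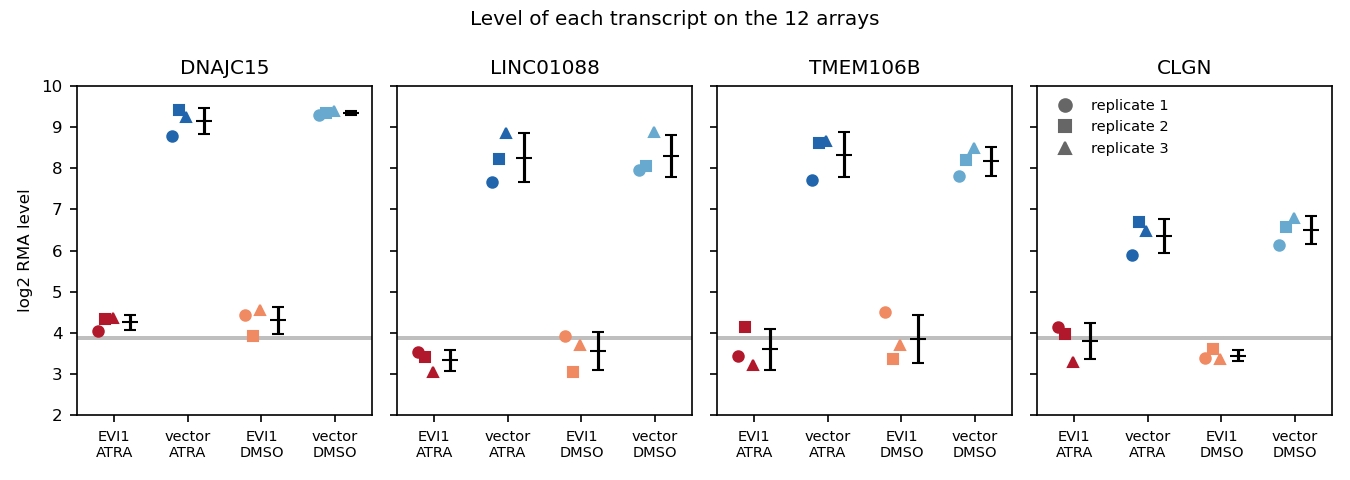
The log2 RMA level of each transcript (vertical axis, main probe set) is plotted for every array, with groups along the horizontal axis, symbols for the replicate number and black bars for the mean ± SD of 3 arrays. The grey band is the range of the arrays' lower quartiles (3.83 to 3.91). EVI1 arrays of all 4 transcripts lie close to the band, and the vector arrays lie above them, from 5.89 (CLGN) to 9.41 (DNAJC15).

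Probe sets of one gene did not read the same difference. For DNAJC15, 227808_at read 4.20 to 4.45 in EVI1 cells and 5.92 to 6.61 in vector cells, a difference of -1.92 ± 0.15 under ATRA and -2.22 ± 0.15 under DMSO (SE). The third DNAJC15 probe set, 230305_at, was dim on all arrays, with 3.91 to 4.29 in EVI1 cells and 4.42 to 4.87 in vector cells, and read -0.63 and -0.50. All 3 had every EVI1 array below every vector array, and the difference was smaller where the vector signal was closer to background.

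TMEM106B had 3 probe sets that read the loss and 1 without signal. The levels of 218930_s_at were 2.70 to 3.06 in EVI1 cells and 6.28 to 7.26 in vector cells, a difference of -3.88 ± 0.23 under ATRA and -4.17 ± 0.23 under DMSO (SE). Probe set 222787_s_at read 2.67 to 3.03 in EVI1 cells and 4.74 to 6.48 in vector cells, and there the vector arrays of replicate 1 (4.74 and 4.84) were lowest. The remaining one, 233666_at, read 2.68 to 3.12 in EVI1 cells and 2.92 to 3.21 in vector cells, below the lower quartile on every array. On 218930_s_at and 222787_s_at, EVI1 arrays stood between the percentiles 2.71 and 10.8 of the array, near the bottom of the scale.

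For LINC01088 the loss rested on 1 probe set. The other 2, 1560891_a_at (3.54 to 3.91 in EVI1 cells and 3.49 to 4.28 in vector cells) and 1560890_at (2.62 to 2.84 in EVI1 cells and 2.60 to 2.77 in vector cells), were near or below the lower quartile in both lines, and their groups overlapped. Their differences lay between -0.15 and 0.05. Where each probe set lies on the transcript was not analysed here. The mean over all probe sets of a gene, which weighs dim ones equally, gave -2.48 (DNAJC15), -1.62 (LINC01088) and -2.87 (TMEM106B) under ATRA.

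**Figure D2:**
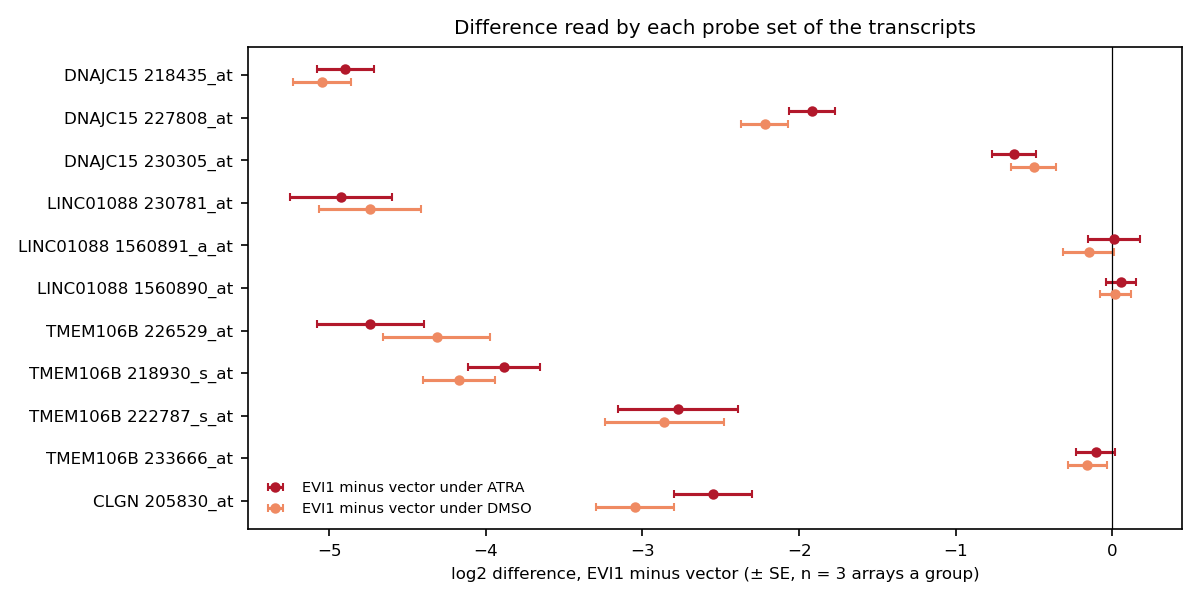
Each row is 1 of the 11 probe sets, and points give the log2 difference, EVI1 minus vector, under ATRA and under DMSO, with the SE as bars. The most negative probe set of each gene reads -5.05 (DNAJC15), -4.92 (LINC01088), -4.74 (TMEM106B) and -3.05 (CLGN), and 2 LINC01088 probe sets and 1 TMEM106B probe set, all near or below the lower quartile, lie close to 0.

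Whether ATRA changed these transcripts is a question that their choice did not use. In vector cells, where all 4 were well above background, no ATRA effect was detected. ATRA minus DMSO was -0.20 for DNAJC15 (95% interval -0.60 to 0.20), -0.05 for LINC01088 (-0.76 to 0.66), 0.16 for TMEM106B (-0.59 to 0.91) and -0.15 for CLGN (-0.69 to 0.40). The limma adjusted p was 0.661 for DNAJC15, 0.967 for LINC01088, 0.879 for TMEM106B and 0.846 for CLGN. Limma thus called 0 of 4 (0 before adjustment at 0.05), beside 3.52% of all genes in this comparison. It also called 0 of 4 with the replicate number as a block, beside 20% of all genes. The intervals leave room for changes of up to 0.60 units for DNAJC15 and 0.91 units for TMEM106B, so small effects were not measurable with 3 arrays a group.

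In EVI1 cells no ATRA effect was detected either. ATRA minus DMSO was -0.05 for DNAJC15 (95% interval -0.45 to 0.35), -0.23 for LINC01088 (-0.94 to 0.48), -0.26 for TMEM106B (-1.01 to 0.49) and 0.36 for CLGN (-0.19 to 0.90). The limma adjusted p was 0.913, 0.735, 0.711 and 0.399 in the same order of genes. Of the 4, limma called 0 (0 before adjustment at 0.05), beside 15.1% of all genes, and 0 with the block, beside 35.7%. All 4 were close to background in these cells, where a real change would be compressed, and passed the filter through vector arrays alone. The count of 0 of 4 therefore cannot show whether ATRA acted on them in EVI1 cells. A rise to the vector level would have been visible, and no interval reached beyond a rise of 0.90 units.

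The ATRA effect was not shown to differ between the lines for any of the 4. The interaction, the ATRA effect in EVI1 cells minus that in vector cells, was 0.15 ± 0.26 for DNAJC15, -0.18 ± 0.46 for LINC01088, -0.42 ± 0.49 for TMEM106B and 0.50 ± 0.35 for CLGN (SE), each with a limma adjusted p of 0.998. For CLGN the 95% interval ran from -0.26 to 1.27. Limma called 0 of the 4 (0 at an unadjusted p under 0.05) and 0% of all genes, where 362 genes had an unadjusted p under 0.05, and it called 0 with the block as well. Since the EVI1 arrays of all 4 lie near background, a fall under ATRA in EVI1 cells could hardly have been seen, and a small rise would be compressed. Apart from the absence of a large rise in EVI1 cells, these values say little about whether the lines respond alike.

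**Figure D3:**
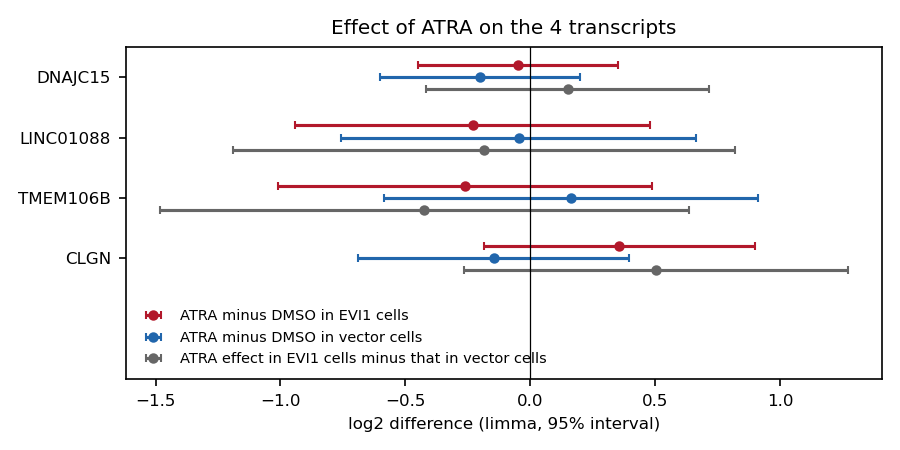
Points give the log2 difference between ATRA and DMSO in EVI1 cells and in vector cells, and the difference between these effects, with 95% intervals from limma as bars, for the 4 transcripts. All 12 intervals include 0.

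The 10 nearest tested genes of each transcript, 5 on each side in the RefSeq gene order, were next compared between the lines. None of the neighbours differed as much as the transcript beside it. The transcripts were chosen for the size of this difference, so that comparison of sizes is a description and not a test. Of the 40 neighbours, limma called 1 under ATRA (5.61% of all genes called) and 0 under DMSO (1.21%), while 7 and 4 had an unadjusted p under 0.05. With the replicate number as a block, 8 of 40 were called under ATRA, beside 25.3% of all genes, and 5 under DMSO, beside 7.19%. The differences of the 40 neighbours lay between -0.72 and 0.73 under ATRA and between -0.78 and 0.63 under DMSO, with medians of 0.01 and -0.045, against medians of -0.01 and 0.02 over all genes tested. The pooled medians hide unlike surroundings. Under ATRA the medians were 0.015 (DNAJC15), -0.145 (LINC01088), -0.165 (TMEM106B) and 0.148 (CLGN). Under DMSO they were -0.003, -0.05, -0.152 and 0.023 in the same order. Of 10 neighbours each, 5, 7, 6 and 2 had a negative difference under ATRA, and 5, 5, 9 and 5 under DMSO. The smallest difference of the 4 transcripts in size was -2.55 (CLGN under ATRA).

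The called neighbour was PHF14, the first tested gene before TMEM106B on chromosome 7, which encodes a PHD finger chromatin protein. It read 9.58, 9.07 and 9.16 in EVI1 cells under ATRA, against 10.05, 9.92 and 10.00 in vector cells, and 9.67, 9.37 and 9.46 in EVI1 cells under DMSO, against 10.09, 10.08 and 10.16 in vector cells. PHF14 fell by 0.72 ± 0.13 (SE) under ATRA (limma adjusted p = 0.0111), and its difference under DMSO was -0.61 ± 0.13 (adjusted p = 0.0526, and 0.00455 with the block). Leaving out 1 array at a time, the adjusted p under ATRA lay between 0.00147 and 0.0520, and it was above 0.05 only without EVI1 ATRA replicate 3. After TMEM106B, the first tested gene was ETV1, an ETS transcription factor, which is named for its place (0.01 under ATRA and 0.07 under DMSO). Further along, ANKMY2 and BZW2, named after their values were seen, were called with the block under ATRA only. Their differences under ATRA were -0.28 (limma adjusted p = 0.238, and 0.0438 with the block) and -0.45 (0.0564, and 0.00249 with the block). The genes next to TMEM106B with a probe set, THSD7A and VWDE, stayed below the limit for testing, with at most 3.76 and 3.04 on any array.

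Around DNAJC15, LACC1 stood apart under DMSO. LACC1, a macrophage enzyme of purine metabolism and the first tested gene after DNAJC15, read 5.44, 5.96 and 5.76 in EVI1 cells under DMSO, against 6.62, 6.27 and 6.62 in vector cells. That difference, -0.78 ± 0.17 (SE), did not pass the limma test (adjusted p = 0.0527) and passed it with the block (0.0194). LACC1 was named after its values were seen. Under ATRA the levels overlapped (6.91 to 7.40 in EVI1 cells and 6.86 to 7.23 in vector cells). Before DNAJC15, the non-coding LOC105370178 differed by -0.03 under ATRA and 0.05 under DMSO. ENOX1, the next gene after DNAJC15 with a probe set, was below the limit in all groups (at most 4.38).

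Around LINC01088 and CLGN on chromosome 4, limma called 0 of 20 neighbours under either agent, beside 5.61% of all genes under ATRA and 1.21% under DMSO. With the block, 1 neighbour of LINC01088 and 3 of CLGN were called under ATRA, beside 25.3% of all genes. Under DMSO the blocked counts were 1 and 2, beside 7.19%. USP38, near CLGN, was called under ATRA only (0.36, limma adjusted p = 0.307, and 0.0156 with the block). MRPL1, MAML3 and INPP4B were called with the block under both agents. These 3 and USP38 were named after their values were seen. MRPL1, a mitochondrial ribosomal protein gene near LINC01088, differed by -0.47 under ATRA (limma adjusted p = 0.140, and 0.00210 with the block) and by -0.39 under DMSO (0.468, and 0.0102 with the block). MAML3 and INPP4B, near CLGN, had positive differences under both agents, where that of CLGN was negative. MAML3, a coactivator of Notch signalling, differed by 0.59 under ATRA (limma adjusted p = 0.0783, and 0.00156 with the block) and by 0.63 under DMSO (0.142, and 0.00222 with the block). INPP4B, a phosphoinositide phosphatase, differed by 0.73 under ATRA (limma adjusted p = 0.114, and 0.00156 with the block) and by 0.45 under DMSO (0.645, and 0.0331 with the block). The tested genes next to the transcripts were not called in either fit. PAQR3, a Golgi membrane protein and the gene before LINC01088, had 8.11 ± 0.41 in EVI1 cells and 8.47 ± 0.29 in vector cells under ATRA, and 8.54 ± 0.30 in EVI1 cells and 8.97 ± 0.11 in vector cells under DMSO (SD, n = 3), with limma adjusted p of 0.391 under ATRA and 0.559 under DMSO. GK2, the next gene after LINC01088 with a probe set, was below the limit (at most 3.91). SCOC and ELMOD2, the tested genes on either side of CLGN, differed by 0.07 each under ATRA and by -0.23 and -0.13 under DMSO, with limma adjusted p of at least 0.803. SCOC-AS1 and MGAT4D, the closest genes with a probe set, did not pass the filter for testing (at most 5 and 2.89 on any array). SCOC-AS1 had 4.46 ± 0.21 in EVI1 cells and 4.83 ± 0.21 in vector cells under ATRA (SD, n = 3). Under DMSO it had 4.33 ± 0.29 in EVI1 cells and 4.77 ± 0.25 in vector cells, and the difference was not tested.

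**Figure D4:**
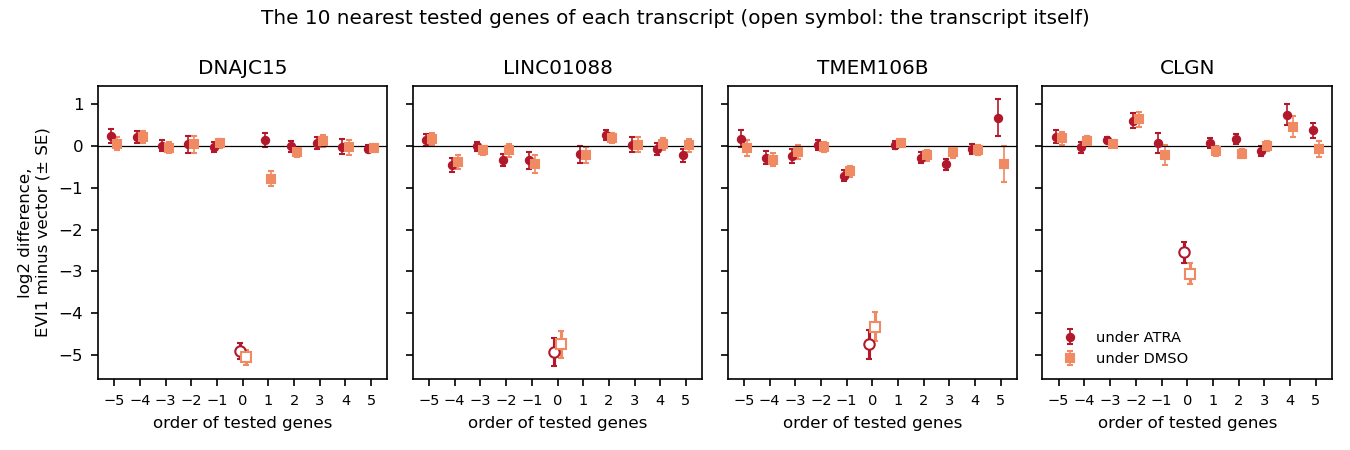
For each transcript, filled symbols give the log2 difference, EVI1 minus vector, with its SE, of the 5 nearest tested genes on either side, ordered along the chromosome (horizontal axis, gene order and not distance). Open symbols at position 0 are the transcript itself, which lies far below its neighbours in all 4 panels. The transcripts were chosen by this difference, so that distance is a description.

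Genes that work with the encoded proteins were counted next, from 4 lists that leave out the 4 transcripts. The lists were put together with earlier results of these data known. Over the 4 lists, limma called 2 genes under ATRA and 0 under DMSO between EVI1 and vector cells, where 5.61% and 1.21% of all genes were called. Without the replicate block, neither the import motor, nor complex I, nor the calnexin cycle had a called gene in either comparison. With the replicate number as a block, 4, 7 and 4 genes of these 3 lists were called under ATRA, and 1, 2 and 2 under DMSO. In that fit 25.3% of all genes were called under ATRA and 7.19% under DMSO.

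The import motor list holds the TIM23 channel and the Hsp70 machinery in which DNAJC15 acts. Of 13 genes, 12 were tested, and limma called 0 under ATRA (2 before adjustment at 0.05) and 0 under DMSO (0 before adjustment at 0.05). TIMM23 itself was below the limit for testing, with group means between 3.75 and 4.01. The blocked fit called 4 of 12 under ATRA, beside 25.3% of all genes, and 1 of 12 under DMSO, beside 7.19%. All of these calls were lower in EVI1 cells, where under ATRA 12.3% of all genes were called lower and 13% higher. The gene called under both agents there was GRPEL1, a nucleotide exchange factor of the mitochondrial Hsp70, named after its values were seen. GRPEL1 differed by -0.57 under ATRA (limma adjusted p = 0.196, and 0.00146 with the block) and by -0.42 under DMSO (0.650, and 0.0126 with the block). The medians of the list were -0.09 under ATRA and 0.07 under DMSO. DNAJC19, the paralog of DNAJC15 in the motor, had 10.02 ± 0.14 in EVI1 cells and 10.12 ± 0.15 in vector cells under ATRA, and 10.30 ± 0.13 in EVI1 cells and 10.21 ± 0.10 in vector cells under DMSO (SD, n = 3). Its limma adjusted p was 0.725 under ATRA and 0.929 under DMSO, so no rise of the paralog was detected beside the loss of DNAJC15. Of complex I, 33 of 37 subunits were tested, and limma called 0 under either agent (7 and 5 before adjustment at 0.05), with medians of 0.02 under ATRA and 0.09 under DMSO. The blocked fit called 7 of 33 under ATRA (3 higher and 4 lower), where 25.3% of all genes were called. Under DMSO it called 2 of 33 (1 higher and 1 lower), where 7.19% were called.

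Around TMEM106B, 19 of 21 genes of its family, of progranulin biology and of the lysosomal membrane were tested. Under ATRA 1 rose and 1 fell, beside 3.28% of all genes higher and 2.33% lower, with a median of 0.29. The split was not even in the blocked fit, where 8 were called higher and 1 lower, beside 13% of all genes higher and 12.3% lower. Under DMSO limma called 0 (2 before adjustment at 0.05), with a median of 0.05, and 2 in the blocked fit, beside 7.19% of all genes. NPC1, a lysosomal cholesterol transporter, had 10.39 ± 0.26 in EVI1 cells and 9.64 ± 0.10 in vector cells under ATRA (SD, n = 3), a rise of 0.75 ± 0.15 (SE, limma adjusted p = 0.0173). With the mean of its probe sets the difference was 0.26 and was not called (adjusted p = 0.202). Under DMSO the NPC1 difference was 0.58 ± 0.15 (SE, limma adjusted p = 0.115, and 0.0282 with the block). TMEM106C, a paralog of TMEM106B, had 10.81 ± 0.29 in EVI1 cells and 11.41 ± 0.12 in vector cells under ATRA, and fell by 0.60 ± 0.14 (SE, limma adjusted p = 0.0318). With the mean of its probe sets the difference was -0.46 and was not called (adjusted p = 0.121). Under DMSO the TMEM106C difference was -0.14 ± 0.14 (SE, limma adjusted p = 0.893, and 0.532 with the block). Both calls depended on single arrays. Without 1 array the adjusted p lay between 0.00404 and 0.0804 for NPC1, which was not called without replicate 2 or 3 of EVI1 ATRA or of vector ATRA. It lay between 0.0106 and 0.110 for TMEM106C, which was not called without any one of these 4 arrays or without vector ATRA replicate 1. The list had 0 to 6 called genes in these fits, the 6 being without EVI1 ATRA replicate 1. The share of all genes called in them is not given here, so this range cannot be set against it.

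The other paralog, TMEM106A, had 6.79 ± 0.43 in EVI1 cells and 6.41 ± 0.05 in vector cells under ATRA (SD, n = 3). Its difference, 0.38 ± 0.18 under ATRA and -0.14 ± 0.18 under DMSO (SE), was not called under either agent (limma adjusted p = 0.253 and 0.937). GRN, which encodes progranulin, had 12.54 ± 0.50 in EVI1 cells and 11.70 ± 0.36 in vector cells under ATRA, and 11.17 ± 0.63 in EVI1 cells and 10.45 ± 0.35 in vector cells under DMSO (SD, n = 3). Its difference, 0.84 ± 0.33 under ATRA and 0.72 ± 0.33 under DMSO (SE), did not pass the limma test (adjusted p = 0.163 and 0.504) and passed it with the block (0.00906 and 0.0411). GRN was named after its values were seen.

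Of the calnexin cycle and other folding genes of the endoplasmic reticulum, 17 of 19 were tested and limma called 0 under ATRA and 0 under DMSO (3 each before adjustment at 0.05), with medians of -0.09 and -0.07. The blocked fit called 4 of 17 under ATRA and 2 of 17 under DMSO, beside 25.3% and 7.19% of all genes. All of these calls were lower in EVI1 cells, where under ATRA 12.3% of all genes were called lower and 13% higher. PDIA4, named after its values were seen, was called there under both agents. Its difference was -0.33 under ATRA (limma adjusted p = 0.0706, and 0.0146 with the block). Under DMSO it was -0.31 (limma adjusted p = 0.192, and 0.0446 with the block). CANX, the widely expressed relative of CLGN, had 12.34 ± 0.09 in EVI1 cells and 12.35 ± 0.10 in vector cells under ATRA, and 12.24 ± 0.06 in EVI1 cells and 12.35 ± 0.06 in vector cells under DMSO (SD, n = 3). Its limma adjusted p was 0.982 under ATRA and 0.855 under DMSO.

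**Figure D5:**
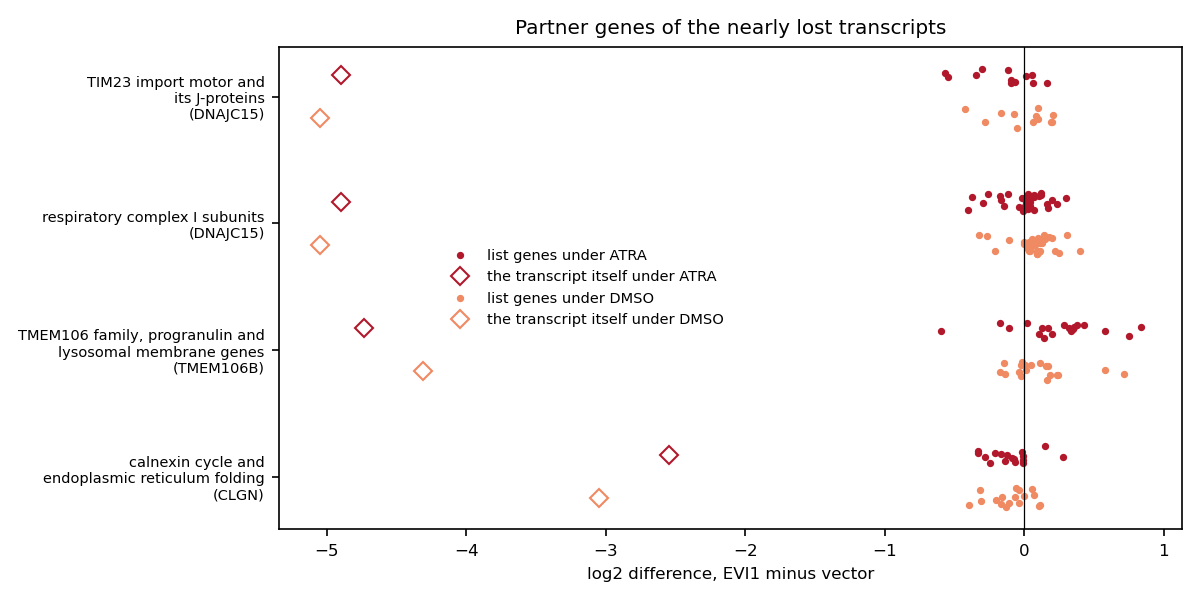
Dots are genes of the 4 partner lists, placed by their log2 difference, EVI1 minus vector, under ATRA and under DMSO, and diamonds are the transcript each list belongs to. The dots lie between -0.60 (TMEM106C) and 0.84 (GRN), and the diamonds between -5.05 (DNAJC15) and -2.55 (CLGN). Diamonds stand for transcripts chosen by this difference, so their distance from the dots is a description.

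The genes most like each transcript were found by the root mean square difference between centred levels over the 12 arrays, which are dominated by the split between the lines. That split is also what the 4 transcripts were chosen by, so the closeness of those with the most negative differences follows from the choice and is given as a description. Between DNAJC15, LINC01088 and TMEM106B the likeness values were 0.32 (LINC01088 and TMEM106B), 0.34 (DNAJC15 and LINC01088) and 0.42 units (DNAJC15 and TMEM106B). CLGN came next for all 3, at 0.96 to 1.14 units. For CLGN the closest were ASH2L (0.41), a subunit of histone H3 methyltransferase complexes, LTBP1 (0.48), which binds latent TGF-beta, and STAR (0.49), a mitochondrial cholesterol transfer protein. ASH2L read 9.76 to 10.03 in EVI1 cells and 11.97 to 12.26 in vector cells, LTBP1 read 6.54 to 7.26 in EVI1 cells and 8.80 to 9.51 in vector cells, and STAR read at most 9.68 in EVI1 cells and at least 11.04 in vector cells. These 3 kept a signal well above background in EVI1 cells, and CLGN did not.

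Measures of RNA quality overlapped between the lines. The 3′ to 5′ difference of the GAPDH control, a measure of RNA integrity, was 0.17 to 0.25 in EVI1 cells and 0.15 to 0.32 in vector cells, and that of ACTB was 0.39 to 0.61 in EVI1 cells and 0.34 to 0.70 in vector cells. Of 10 myeloid markers 9 had a probe set, and all 9 reached a log2 value of 5 (among them SPI1, LYZ and MPO). Limma without the block called 0 of these 9 between the lines under either agent. Of 29 markers of other cell types with a probe set, 19 reached that value. Of these, 1 was called, PECAM1, higher in EVI1 cells under ATRA only, a gene that myeloid cells also express. Over all genes, 5.61% were called under ATRA and 1.21% under DMSO. Calls of markers with the block were not counted. MECOM itself read 2.61 to 3.60 on its 5 probe sets on all arrays, and limma called 0 of them between the lines, so its probe sets give no check of which line carries EVI1.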

How the data were processed

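The authors deposited 1 table of log2 expression values. RMA and Affymetrix Expression Console 1.3 are named for it in the submitters' processing notes, without settings. The deposited log2 values were used without further scaling. Per the labels, 250 ng of total RNA was amplified and biotin-labelled for 3′ arrays.

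Probe sets were named from the array annotation: 41097 carried 1 symbol, 1801 carried several and were left out, and 41043 were found in the RefSeq gene table (GRCh38.p14), which also gave the gene order. The probe set with the highest mean stood for its gene. All 12 arrays were fitted as group means (limma 3.58.1, R 4.3.3, lmFit and eBayes), with Benjamini-Hochberg adjustment over 14080 genes and calls at an adjusted p under 0.05. The fit was run on simulated data whose noise was independent between arrays. That run does not cover the shared deviations of same-numbered replicates described below. SEs of secondary probe sets come from the same fit over all named probe sets.

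The 4 transcripts and the gene lists were chosen with earlier results of these data known. Genes named are the transcripts, the 3 most alike, called list genes and neighbours, close paralogs and adjacent genes, and the text says where a gene was added later. Same-numbered replicates deviated together from their group means (r from 0.408 to 0.704 in all 18 pairs of arrays), so the numbers from the labels pair the samples. Blocked counts are given for every partner list and set of neighbours, and blocked p-values for the named genes whose call changes. The series design calls them biological, with no culture or passage given. The number of arrays limits precision.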

Additional observations from a re-analysis of the deposited data

How the results depend on the processing

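The ATRA effects and interactions of the 4 transcripts were called under none of the alternatives run (replicate block, no filter, quantile normalization, eBayes with trend and robust, mean of all probe sets, and leaving out each of 12 arrays). Their adjusted p was at least 0.161 for ATRA in EVI1 cells, 0.443 for ATRA in vector cells and 0.514 for the interaction. In EVI1 cells all 4 lay near background, so a fall there, and an interaction resting on it, could hardly have been called under any alternative. A small rise would be compressed. With the replicate block, called list genes under ATRA were 4 (import motor), 7 (complex I), 9 (lysosomal) and 4 (calnexin cycle), and under DMSO 1, 2, 2 and 2, where 25.3% of all genes were called under ATRA and 7.19% under DMSO. Called neighbours under ATRA were then 1 (DNAJC15), 1 (LINC01088), 3 (TMEM106B) and 3 (CLGN), and under DMSO 1, 1, 1 and 2. With quantile normalization 1 import motor gene and 2 TMEM106B neighbours were called under ATRA, and 1 neighbour each of DNAJC15 and TMEM106B under DMSO. With eBayes trend and robust, the calls under ATRA were 1 import motor gene, 1 complex I gene, 4 lysosomal genes and 2 TMEM106B neighbours, and under DMSO 1 complex I gene and 1 neighbour each of DNAJC15 and TMEM106B. The share of all genes called is given only for the main and blocked fits. Counts from the other alternatives therefore cannot be read as particular to the lists or neighbours.

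With the mean of all probe sets, which weighs dim probe sets equally, EVI1 minus vector was -2.48 (DNAJC15), -1.62 (LINC01088) and -2.875 (TMEM106B) under ATRA, and -2.59, -1.62 and -2.88 under DMSO. TMEM106B then had 2 called neighbours under ATRA and 1 under DMSO, and complex I and the calnexin cycle 1 gene each under DMSO. Values that were not called and changed sign there were the ATRA effect on TMEM106B in vector cells (-0.022), the interactions of LINC01088 (0.0033) and TMEM106B (0.00083), TMEM106A under DMSO (0.11) and CANX under ATRA (0.039). NPC1 (0.26, adjusted p = 0.202) and TMEM106C (-0.46, adjusted p = 0.121) were no longer called. The cause was not tested.

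Leaving out 1 array at a time gave 0 to 6 called lysosomal genes, 0 to 1 import motor genes, 0 to 2 complex I genes, 0 to 3 TMEM106B neighbours and 0 to 1 CLGN neighbours under ATRA. Under DMSO it gave 0 to 1 neighbours of DNAJC15 and 0 to 1 of TMEM106B. The share of all genes called in each of these fits is not given here, so the counts cannot be set against it. Uncalled values that changed sign ranged in vector cells under ATRA between -0.35 and 0.245 (LINC01088), -0.022 and 0.475 (TMEM106B) and -0.33 and 0.083 (CLGN). In EVI1 cells under ATRA they ranged between -0.235 and 0.075 (DNAJC15) and -0.54 and 0.062 (TMEM106B), in the interaction between -0.035 and 0.28 (DNAJC15) and -0.475 and 0.12 (LINC01088), and for CANX, EVI1 minus vector under ATRA, between -0.065 and 0.03. The number of arrays and the background signal limit what these values can show.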
